A study of Rattus norvegicus with 65 samples.

Results

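5-fluorouracil (5FU) was compared with its 1% DMSO control (DMSO1) after 6 hours in primary neonatal rat cardiomyocytes, the beating heart muscle cells obtained from newborn rats. The comparison holds every library of these 2 groups, 6 of 5FU and 6 of DMSO1, which is 12 of the 65 libraries of the study. Cells in the 5FU group received 10 mM 5FU in 1% DMSO, and cells in the DMSO1 group received 1% DMSO without drug. All cells were unmodified primary cells in serum-free medium after overnight serum starvation. Hearts of 3 litters gave a single pool of cells that was divided over the wells, so the libraries are parallel cultures and p-values measure the spread between cultures and not between animals. A second control, 7 libraries of 0.25% DMSO at 6 hours (DMSO2), belongs to acetaminophen (Ace, 2.5 mM) and doxorubicin (Dox, 1.25 μM) and is given beside results whose direction or count turned with the control. The measurement was RNA sequencing of polyadenylated RNA, and the values are estimated counts for 14554 genes, given as CPM, counts relative to the scaled library total.

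5FU is an analogue of uracil that cells take up and convert to fluorinated nucleotides. These nucleotides enter RNA in place of uridine, where they disturb the processing of ribosomal and other RNA, and they block thymidylate synthase, which deprives DNA synthesis of thymidine. Failed ribosome assembly and damaged DNA both lead to stabilization of p53, a transcription factor that raises inhibitors of the cell cycle, DNA repair factors and activators of apoptosis. Neonatal cardiomyocytes are leaving the cell cycle, and cultures prepared from neonatal hearts also contain other cells that divide. In patients the drug is known for chest pain, arrhythmia and ischemia.

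The 12 libraries were alike in depth, with totals of 19216512 to 21195559 estimated counts in 5FU and 20344995 to 21970914 in DMSO1. In a PCA of log2 CPM the first component held 44.7% of the variance and separated the groups. 5FU library 1 lay apart from the other 5FU libraries on the third component, and DMSO1 library 3 lay apart from the other DMSO1 libraries on the second. Their correlations with the rest of their groups, 0.988 and 0.990, were the lowest in each group. No library pair within a group agreed within counting noise. Cardiomyocyte markers summed to 33094 to 43922 CPM in DMSO1 and 33267 to 41858 CPM in 5FU, fibroblast markers to 3361 to 6530 and 3515 to 6435 CPM, and smooth muscle and pericyte markers to 641 to 2942 and 908 to 1799 CPM. Endothelial markers, of which 5 of 6 were in the table, summed to 83.2 to 116 CPM in DMSO1 and 61.6 to 93.2 CPM in 5FU, and macrophage markers to 32.3 to 46.2 and 36.4 to 40.8 CPM. No marker used was at 0 in every library.

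After 6 hours of 5FU, 3408 genes were higher and 3563 were lower at an FDR below 0.01 (false discovery rate, edgeR quasi-likelihood test with Benjamini-Hochberg adjustment), which is 23.4% and 24.5% of all genes tested. Genes that pass this threshold are called differentially expressed genes (DEGs) here, and "rose" and "fell" are used of them only. Large changes were fewer, with 308 genes higher (2.12%) and 569 lower (3.91%) by at least 1 on the log2 scale, and 72 higher (0.495%) and 51 lower (0.35%) by at least 2. Every 5FU library lay above every DMSO1 library for 2003 genes (13.8%) and below for 2097 (14.4%). Without 5FU library 1 and DMSO1 library 3 together, 6368 genes passed the same test in place of 6971. With scaling by library size only, the split moved to 2478 higher and 4258 lower. Against the DMSO2 libraries, 27.4% of all genes were higher and 26.3% lower. In that comparison 84.6% of the 3408 higher genes and 77.5% of the 3563 lower genes passed in the same direction, no higher gene was lower, and 36 lower genes were higher; these comparisons share the 5FU libraries. The controls differed from each other too, with 9.87% of all genes higher and 6.6% lower in DMSO1 than in DMSO2. Among the genes described with their lists, Srf, Bad, Bcl2l2, Ddit3, Hsp90aa1, Aurka, Mad2l1, Incenp, Dnmt1, Ctps1, Pus1, Trub1, Gata4, Kcnq1, Fkbp1b and Tgfb2 passed against DMSO1 and not against DMSO2, and Nppb, Xirp2, Ankrd1, Csrp3 and Ccn2 passed in opposite directions.

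**Figure D1:**
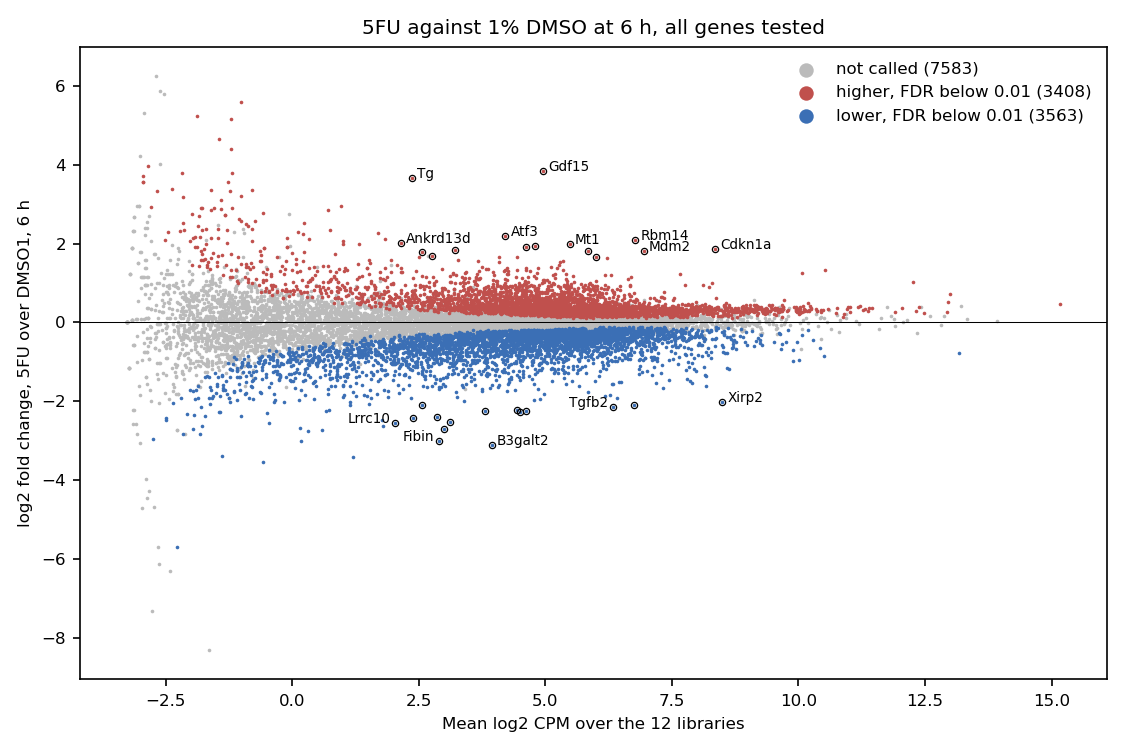
Each point is a gene, with its mean log2 CPM over the 12 libraries on the x axis and its log2 fold change of 5FU over DMSO1 at 6 h on the y axis; red and blue points are the 3408 higher and 3563 lower DEGs, grey points did not pass, and rings mark the 15 largest increases and 15 largest decreases with a mean count of at least 100. Gdf15 and Tg lie highest among the ringed genes, at 3.84 and 3.67, and B3galt2 lies lowest, at -3.11.

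The 15 largest increases included a stress hormone, AP-1 factors and several p53 targets. Gdf15, a stress-induced hormone of the TGF-beta family that acts on appetite, lay at 6.29 to 10.9 CPM (median 8.23) in DMSO1 and 77.5 to 236 CPM (median 102) in 5FU, a log2 fold change of 3.84 ± 0.31 (SE) or 14.3-fold (edgeR FDR = 1.07e-16). All 5FU libraries were far above all DMSO1 libraries, and 5FU library 1 was the highest. Tg, which encodes the thyroid hormone precursor thyroglobulin, was at 0.909 to 2.18 CPM (median 1.39) in DMSO1 and 14.1 to 26.4 CPM (median 18.4) in 5FU, with a log2 fold change of 3.67 ± 0.25 (SE) (edgeR FDR = 1.35e-19). The groups were again well separated. Tg overlaps Sla in the annotation, whose log2 fold change of -0.71 did not pass. Rbm14, an RNA-binding coactivator, was at 45.1 to 59.1 CPM (median 52.6) in DMSO1 and 200.3 to 255 CPM (median 226) in 5FU, 4.28-fold higher (edgeR FDR = 2.77e-19), and its groups did not overlap. Rbm4 and Rbm4b, which overlap Rbm14 in the annotation, rose by 0.58 and 0.32 on the log2 scale. The remaining genes of the 15 were Atf3, Mt1, Srxn1, Cdkn1a, Pmaip1, Mdm2, Gtse1, Fos and Aen, which are described with their pathways, together with Ankrd13d, an ankyrin repeat protein that binds ubiquitin, at 2.02, the thiamine transporter Slc19a2 at 1.91 and the kinase Map3k8 at 1.68.

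The 15 largest decreases included secreted, matrix and heart muscle proteins. B3galt2, a galactosyltransferase, lay at 26.7 to 61.3 CPM (median 47.9) in DMSO1 and 3.31 to 6.73 CPM (median 6.09) in 5FU, a log2 fold change of -3.11 ± 0.16 (SE) (edgeR FDR = 1.55e-25). Every 5FU library was below every library of both DMSO controls. B3galt2 overlaps Cdc73 in the annotation, which fell by 0.45. Fibin, a small secreted protein, was at 16.6 to 24.1 CPM (median 21.1) in DMSO1 and 2.32 to 2.97 CPM (median 2.49) in 5FU, a log2 fold change of -3.0 ± 0.17 (SE) (edgeR FDR = 1.00e-22), with a wide gap between the groups. Stc1, the hormone stanniocalcin, was at 43.1 to 53.5 CPM (median 50.9) in DMSO1 against 9.15 to 11.6 CPM (median 9.72) in 5FU (log2 fold change -2.28 ± 0.11 (SE), edgeR FDR = 3.03e-27), and both groups were tight and far apart. Proteins that shape the matrix were also in this group, with the hyaluronan-degrading Cemip at -2.53 and the matrix proteases Adamts5 at -2.42 and Adamts8 at -2.24. Lrrc10, a leucine-rich repeat protein of cardiac muscle, fell by 2.55, Gpr22, an orphan receptor of the heart, fell by 2.25, Grip2, a scaffold protein, fell by 2.40, and Lbh, a transcription cofactor of the developing heart, fell by 2.09. Gpr22 overlaps Cog5 in the annotation, which fell by 0.21. Tnfrsf11b, the decoy receptor osteoprotegerin, fell by 2.10 and the keratin-like gene Krt18l1, which can share reads with keratin 18, fell by 2.70. Of the 30 genes, 28 had groups that did not overlap. The exceptions were Tgfb2 and Xirp2, which are described with the heart genes. The 30 were chosen by the size of their change in these same libraries, so their separation is no added support. Over all genes, the 5FU libraries lay wholly above DMSO1 for 13.8% and wholly below for 14.4%.

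Most p53 targets rose. Of 38 targets tested, 23 rose and 3 fell, with a median log2 fold change of 0.40 beside -0.0016 over all genes. The cell cycle inhibitor Cdkn1a (p21) was at 134 to 212 CPM (median 171) in DMSO1 and 525 to 715 CPM (median 643) in 5FU, 3.66-fold higher with a log2 fold change of 1.87 ± 0.24 (SE) (edgeR FDR = 6.26e-10). Mdm2, the ubiquitin ligase through which p53 limits itself, was at 60.04 to 76.8 CPM (median 65.6) and 191 to 319.7 CPM (median 225), 3.53-fold higher (edgeR FDR = 1.56e-15). In both genes the lowest 5FU library stood above the highest DMSO1 library by a wide margin. Among inducers of cell death, the BH3-only protein Pmaip1 (Noxa) was at 4.03 to 5.58 CPM (median 5.14) in DMSO1 and 11.8 to 26.9 CPM (median 17) in 5FU (log2 fold change 1.84 ± 0.18 (SE)), the nuclease Aen rose by 1.65 and the death receptor Fas by 1.11. Apaf1, the core of the apoptosome, went the other way, and was at 34.5 to 41.6 CPM (median 38.4) in DMSO1 and 18.2 to 29.3 CPM (median 26.3) in 5FU, a log2 fold change of -0.59 ± 0.07 (SE) (edgeR FDR = 2.11e-10), without overlap. Tp53inp1, a cofactor of p53, rose by 1.56, the translesion polymerase Polh by 1.37, the RNA-binding protein Zmat3 by 1.14 and the antiproliferative Btg2 by 0.99. Bax, Gadd45a, Fdxr and Perp were among the 12 targets that did not pass, with log2 fold changes of 0.32, 0.10, 0.22 and 0.02. Against DMSO2, Gadd45a was higher, at 0.67 (edgeR FDR = 1.11e-11). Among regulators of p53, the kinase Hipk2 fell by 0.85 and the deubiquitinase Usp7 fell by 0.23. In the Bcl2 family 3 of 17 members rose and 4 fell, 17.6% and 23.5% beside 23.4% and 24.5% of all genes. Apart from Pmaip1, the survival factors Bcl2 and Bcl2a1 fell, at -1.10 and -0.85, Bcl2l2 fell by 0.40 and the proapoptotic Bad rose by 0.25. Against DMSO2, 5 members were higher and 5 lower, with the proapoptotic Bcl2l11 and Bik among the lower, at -0.44 and -0.97.

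**Figure D2:**
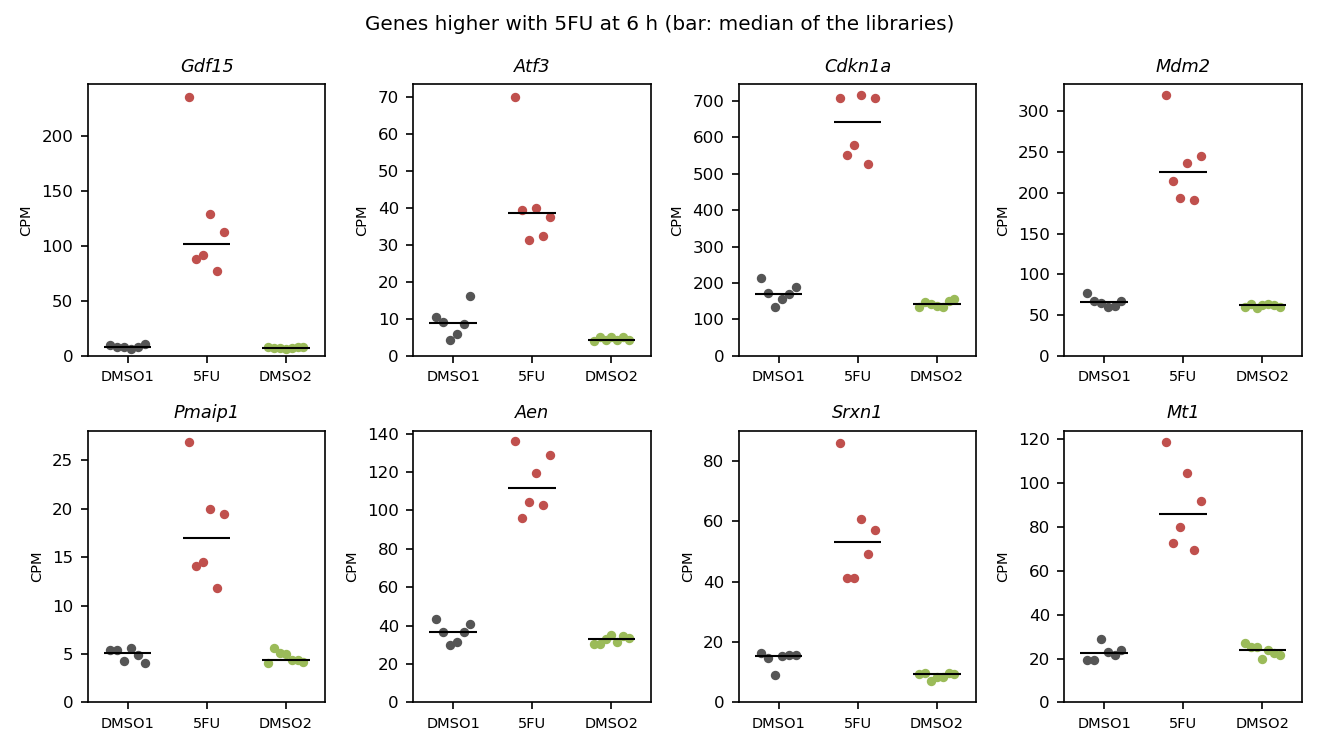
CPM of 8 genes on a linear axis from 0 in each library at 6 h, with 6 points each for DMSO1 and 5FU and 7 for DMSO2, and a bar at the median of each group. The 5FU libraries of all 8 genes lie above every library of both controls, and the highest 5FU point of Gdf15 and of Atf3 stands clear of the other 5.

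Immediate early genes, the transcription factors that cells switch on within minutes to hours of a stimulus, had the highest median of the lists described. Of 31 tested, 19 rose and 2 fell, with a median log2 fold change of 0.60. Atf3, a factor induced by many stresses, was at 4.24 to 16.4 CPM (median 9.02) in DMSO1 and 31.4 to 70.2 CPM (median 38.6) in 5FU (log2 fold change 2.20 ± 0.18 (SE), edgeR FDR = 1.42e-16). The AP-1 subunits Fos, Fosb, Jund, Jun and Junb rose by 1.79, 2.12, 0.94, 0.66 and 0.51, and none of them had overlapping groups. Klf2, better known as a flow-responsive factor of endothelium, was at 6.22 to 13.2 CPM (median 9.33) in DMSO1 and 26 to 34.8 CPM (median 29.95) in 5FU, 3.13-fold higher (edgeR FDR = 3.27e-16). Egr1 rose by 0.95 and Ier3 by 0.92. The members that fell were Myc, a driver of growth and ribosome production, and Srf, the serum response factor. Myc was at 12.1 to 15.4 CPM (median 12.8) in DMSO1 and 3.55 to 8.54 CPM (median 4.98) in 5FU, a log2 fold change of -1.31 ± 0.15 (SE) (edgeR FDR = 5.09e-11), with no overlap, whereas Srf fell by 0.63 with overlapping groups.

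Genes for metal binding and for redox defence changed in part. The metallothionein Mt1, a small protein that binds zinc and other metals, was at 19.4 to 28.9 CPM (median 22.3) in DMSO1 and 69.4 to 119 CPM (median 85.8) in 5FU, a log2 fold change of 1.98 ± 0.14 (SE) (edgeR FDR = 2.79e-19). Its paralog Mt2A, which resembles it closely enough to share reads, rose by 1.38, and the zinc exporter Slc30a1 rose by 1.64, at 37.3 to 47 CPM (median 40.7) in DMSO1 and 114 to 157 CPM (median 129) in 5FU. Mt2A and Slc30a1 were chosen after their values were seen. None of the 3 genes had overlapping groups. The promoters of Mt1 and Slc30a1 around the RefSeq start in the rat assembly GRCr8 are shown because these genes moved together and metal response elements lie in them (Mt1 at chr19:10832926-10833225, minus strand, Slc30a1 at chr13:106021769-106022068, plus strand), each 5′ to 3′ on the strand of the gene with the elements TGCACNC and TGCGCNC in capitals on either strand.
Mt1: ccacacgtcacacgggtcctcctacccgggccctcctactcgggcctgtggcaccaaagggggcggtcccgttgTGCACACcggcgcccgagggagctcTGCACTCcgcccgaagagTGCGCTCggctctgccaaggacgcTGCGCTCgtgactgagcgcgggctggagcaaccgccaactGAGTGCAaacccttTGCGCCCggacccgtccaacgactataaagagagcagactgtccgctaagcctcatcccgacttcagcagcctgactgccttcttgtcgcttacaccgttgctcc
Slc30a1: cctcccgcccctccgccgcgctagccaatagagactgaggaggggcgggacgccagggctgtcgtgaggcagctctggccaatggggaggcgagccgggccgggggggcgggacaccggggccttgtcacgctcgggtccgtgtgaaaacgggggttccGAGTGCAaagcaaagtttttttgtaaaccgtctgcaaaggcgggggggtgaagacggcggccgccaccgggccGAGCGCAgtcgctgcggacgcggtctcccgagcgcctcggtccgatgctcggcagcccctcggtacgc
Mt1 held 6 matches and Slc30a1 held 2. At least 1 match was present in 35.8% of the promoters of 11403 tested genes, so a match on its own is common. Among targets of NRF2, the regulator of antioxidant genes, 10 of 24 rose and 4 fell (median 0.19). That is 41.7% and 16.7%, beside 23.4% and 24.5% of all genes. Sulfiredoxin, Srxn1, led the list, at 8.96 to 16.5 CPM (median 15.5) in DMSO1 and 41.1 to 86 CPM (median 53.1) in 5FU, 3.86-fold higher (edgeR FDR = 2.72e-17), and its groups were far apart. Hmox1, the heme oxygenase, rose by 0.78, Osgin1 by 0.72 and the mRNA of NRF2 itself, Nfe2l2, by 0.61. The cystine carrier Slc7a11 fell by 0.66, and Nqo1 and Gclc had log2 fold changes of 0.19 and -0.19 that did not pass. Against DMSO2, Gclc was higher, at 0.23 (edgeR FDR = 0.00125). The promoter of Srxn1 (chr3:161064562-161064861, plus strand, GRCr8, RefSeq) is shown for 2 matches to the AP-1 letters TGANTCA, in capitals, of which at least 1 was present in 5.0% of all promoters. The antioxidant response element was searched only in the form TGACNNNGC. That form was present in 14.5% of all promoters and had 0 matches in this window. Other forms of the element were not searched, so the 0 does not show that the window lacks the element.
Srxn1: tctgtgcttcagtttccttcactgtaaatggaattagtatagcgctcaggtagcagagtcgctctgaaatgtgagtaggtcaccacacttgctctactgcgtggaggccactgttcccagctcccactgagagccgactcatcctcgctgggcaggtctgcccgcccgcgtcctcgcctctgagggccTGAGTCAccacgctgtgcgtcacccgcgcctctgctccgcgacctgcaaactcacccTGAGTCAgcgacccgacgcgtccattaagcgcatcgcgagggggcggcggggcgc

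Targets of other stress pathways moved in both directions. ATF4 targets, the amino acid response genes, fell more often than they rose, with 6 higher and 17 lower of 36 and a median of -0.25. The genes that rose on that list were Gdf15, Atf3, Sesn2, Ddit4, Ddit3 and Cebpg, several of which also answer to other stresses. Amino acid carriers and synthesis genes fell, with Slc1a5 at 34.8 to 53.8 CPM (median 42) in DMSO1 and 15.4 to 24.8 CPM (median 20.5) in 5FU (log2 fold change -1.09 ± 0.12 (SE), edgeR FDR = 2.33e-11), Slc7a5 at -0.76, Psat1 at -0.68 and Chac1 at -0.90. The groups of these 4 did not overlap. Against DMSO2 the ATF4 list had 6 higher and 12 lower genes and a median of -0.01. Heat shock factor targets had 2 higher and 8 lower of 18, 11.1% and 44.4% beside 23.4% and 24.5% of all genes. Against DMSO2 they had 7 higher and 3 lower. The cochaperone Dnajb1 rose by 0.71 without overlap, and Hsp90aa1 fell by 0.57 with overlap. Endoplasmic reticulum stress genes had 5 higher and 3 lower of 22, 22.7% and 13.6% beside 23.4% and 24.5% of all genes. Hspa5 (BiP) was at -0.16 (edgeR FDR = 0.0611).

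Most genes of G2 and mitosis fell. Of 70 tested, 50 fell and 4 rose, with a median log2 fold change of -0.68, beside 24.5% lower among all genes. Plk1, the kinase that drives entry into mitosis, was at 34.3 to 44.6 CPM (median 36.3) in DMSO1 and 9.71 to 15.5 CPM (median 11.6) in 5FU (log2 fold change -1.71 ± 0.10 (SE), edgeR FDR = 5.29e-23). Cdc20, the activator of the anaphase-promoting complex, was at 51.1 to 69.3 CPM (median 55.6) and 17.8 to 23.9 CPM (median 21.3) (log2 fold change -1.48 ± 0.12 (SE), edgeR FDR = 4.76e-17). The kinetochore protein Cenpf fell by 2.22, the spindle checkpoint kinase Bub1b fell by 1.36, the cytokinesis genes Racgap1 and Anln fell, at -1.39 and -1.29, and the kinesin Kif22 fell by 1.30. The groups of all these genes were apart, and for each of them the 5FU libraries lay below those of DMSO2 too. Smaller decreases such as those of Aurka, Mad2l1 and Incenp, at -0.33, -0.45 and -0.22, had overlap with a control. The 4 genes that rose were Gtse1, Cdca5, Wee1 and Cks1b. Gtse1, a G2 protein that is also known to bind p53, was at 26.9 to 37.3 CPM (median 29.9) in DMSO1 and 82.8 to 130.0 CPM (median 108) in 5FU, a log2 fold change of 1.81 ± 0.22 (SE), and Wee1, the kinase that delays mitosis, rose by 0.35. In cultures of several cell types, fewer dividing cells and less of each RNA per cell cannot be told apart.

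The decrease was smaller against the other control. Against DMSO2, 36 of the 70 genes were lower and 7 higher, with a median of -0.37, beside 27.4% higher and 26.3% lower of all genes. The mean log2 CPM of the list in a library, less its mean over the 6 DMSO1 libraries, was -0.20 to 0.21 on the log2 scale in DMSO1, -0.86 to -0.43 in 5FU and -0.41 to -0.20 in DMSO2, so the DMSO2 libraries lay between the other groups. Without 5FU library 1 and DMSO1 library 3, 50 genes fell and 2 rose.

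The promoters of Plk1 (chr1:186147408-186147707, plus strand) and Cdc20 (chr5:137255750-137256049, minus strand), from RefSeq in GRCr8, are shown for the letters by which many G2/M promoters are known, the CHR element (TTTGAA or TTCGAA) and the CCAAT box (CCAAT), which are in capitals on either strand.
Plk1: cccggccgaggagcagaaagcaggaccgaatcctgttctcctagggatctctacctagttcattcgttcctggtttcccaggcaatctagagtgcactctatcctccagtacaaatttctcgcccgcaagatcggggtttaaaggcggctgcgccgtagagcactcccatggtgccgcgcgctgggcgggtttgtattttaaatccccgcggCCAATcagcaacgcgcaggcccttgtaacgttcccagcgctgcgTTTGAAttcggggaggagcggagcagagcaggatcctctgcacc
Cdc20: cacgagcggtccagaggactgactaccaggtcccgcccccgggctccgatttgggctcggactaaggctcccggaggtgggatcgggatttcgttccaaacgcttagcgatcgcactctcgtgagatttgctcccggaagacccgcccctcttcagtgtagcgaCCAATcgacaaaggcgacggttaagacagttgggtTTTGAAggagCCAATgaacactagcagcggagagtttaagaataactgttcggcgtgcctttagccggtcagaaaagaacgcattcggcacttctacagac
A CHR element in either form stood in 43 of the 60 G2/M promoters in the sequence table (71.7%) against 13.5% of all 11403 promoters. CCAAT stood in 71.67% against 36.96%, and both together in 34 of 60 (56.7%) against 5.4%. A CHR element stood in 31 of 43 G2/M genes that fell and in 12 of 17 that did not fall. These matches describe a window of 300 bases and do not show binding.

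Genes of the G1/S transition and of DNA replication did not follow the mitotic genes. Of 58 tested, 21 rose and 4 fell, with a median of 0.18. The origin licensing factors Cdt1 and Cdc6 were at 14.9 to 18.8 CPM (median 17.1) and 8.34 to 12.2 CPM (median 10.2) in DMSO1 and at 28.1 to 39.5 CPM (median 34) and 13.7 to 21.7 CPM (median 18.5) in 5FU, log2 fold changes of 0.98 ± 0.11 (SE) and 0.82 ± 0.12 (SE). Both genes had 5FU libraries above every control library. Cyclin E1, Ccne1, which drives entry into S phase, rose by 0.72, and its partner gene Ccne2 by 0.51 with overlap. Slbp, which binds histone mRNA, rose by 0.90, and the repressors E2f7 and E2f8 by 0.72 and 0.66. The sliding clamp Pcna rose by 0.24. The genes that fell were Ccna2, the cyclin of S and G2, at -0.82, Rpa3 at -0.51, Mcm7 at -0.39 and Dnmt1 at -0.18. Against DMSO2, 39 of the 58 were higher and 3 lower.

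Genes that handle 5FU itself moved modestly in both directions, with 6 of 30 higher and 9 lower, near the background of 23.4% and 24.5%, and 13 higher and 9 lower against DMSO2. Of the enzymes that activate the drug, Umps, which attaches ribose phosphate to it, was at 55.8 to 65.8 CPM (median 62.8) in DMSO1 and 42.2 to 51.9 CPM (median 46.2) in 5FU (log2 fold change -0.42 ± 0.07 (SE), edgeR FDR = 1.06e-06), and the groups did not overlap. Upp1, the uridine phosphorylase, fell by 0.46, the uridine-cytidine kinase Uck2 fell by 0.65, and its isoenzyme Uck1 rose by 0.41. The nucleoside carrier Slc29a1 fell by 0.45. Thymidylate synthase, Tyms, the enzyme that the drug blocks, was at 34.8 to 43.9 CPM (median 36.4) and 35.8 to 43.8 CPM (median 41.9), with overlapping groups and a log2 fold change of 0.12 ± 0.08 (SE) (edgeR FDR = 0.193). Dpyd, which degrades the drug, was low at 1.07 to 2.20 CPM (median 1.63) and 1.21 to 2.25 CPM (median 1.65) (log2 fold change 0.12 ± 0.19 (SE), edgeR FDR = 0.607). Dut, Tk1 and Rrm2, which serve thymidine nucleotide supply, had log2 fold changes of 0.03, 0.05 and -0.11 that did not pass. The salvage kinases Dck, for deoxycytidine, and Tk2, for thymidine in mitochondria, had the largest increases of the list, at 6.09 to 9.24 CPM (median 7.45) and 11.7 to 15.5 CPM (median 14.1) in DMSO1 and at 11.7 to 18.1 CPM (median 14.7) and 23.4 to 29.6 CPM (median 26) in 5FU, with log2 fold changes of 1.0 ± 0.13 (SE) and 0.90 ± 0.07 (SE). Both were clear of every control library. Of the glycosylases that remove uracil or its analogues from DNA, Smug1 rose by 0.32, Tdg fell by 0.37 and Ung was at 0.15 (edgeR FDR = 0.0373). In de novo purine and pyrimidine synthesis no gene rose and 6 of 18 fell, Umps, Ctps1 and Ppat among them. That is 33.3% lower, beside 24.5% of all genes. Against DMSO2, 2 were higher and 7 lower, and 3 genes were lower against both controls.

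Ribosome genes divided by role. Of 57 mRNAs for cytosolic ribosomal proteins, 54 rose and none fell, by small amounts, with a median of 0.32. Rps2 was at 1799.9 to 2263 CPM (median 2046) in DMSO1 and 2405 to 3088 CPM (median 2723) in 5FU and Rplp0 at 2199 to 2559 CPM (median 2326) and 2637 to 3478 CPM (median 3044), log2 fold changes of 0.41 ± 0.08 (SE) and 0.37 ± 0.06 (SE), without overlap. Rpl5, Rpl11 and Rpl23, which bind Mdm2 when ribosome assembly fails, rose by 0.21, 0.31 and 0.34 with overlapping groups. The count depended on libraries, since without 5FU library 1 and DMSO1 library 3, 25 rose, with a median of 0.26. These mRNAs have many processed copies in the genome, so reads may be split between them. For mitochondrial ribosomal proteins 35 of 70 rose and 3 fell, and the number that rose was 19 with scaling by library size only, 21 without 5FU library 1 and 23 without 5FU library 2. Genes for ribosome assembly in the nucleolus gave 21 higher and 41 lower of 103 against DMSO1, but 34 higher and 25 lower against DMSO2. The 21 became 14 with scaling by library size only and 13 without 5FU library 1 and DMSO1 library 3. Among those that fell, the processome component Utp20 was at 42.3 to 56.2 CPM (median 46.1) in DMSO1 and 21.7 to 28.5 CPM (median 25.5) in 5FU (log2 fold change -0.92 ± 0.07 (SE), edgeR FDR = 1.00e-16), and the snoRNP core proteins Nop58 and Nop56 fell, at -0.80 and -0.54. Among those that rose, Urb2, a nucleolar assembly factor, was at 11.7 to 16 CPM (median 15.1) in DMSO1 and 28.1 to 40.2 CPM (median 30.9) in 5FU (log2 fold change 1.15 ± 0.08 (SE), edgeR FDR = 3.34e-20), with Urb1 at 0.80, Nip7 at 0.73 and Rrs1 at 0.62. None of these had overlapping groups. For RNA polymerase I, 9 of 18 genes rose and 2 fell. The large subunit Polr1a fell by 0.48, and the promoter factors Taf1a and Taf1c rose by 0.80 and 0.77.

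Splicing factors fell more often than they rose, with 6 higher and 20 lower of 38 (3 higher without 5FU library 1). The founding SR protein Srsf1 was at 263 to 319.5 CPM (median 289) in DMSO1 and 99.5 to 119 CPM (median 102) in 5FU, a log2 fold change of -1.47 ± 0.05 (SE) (edgeR FDR = 3.53e-34). Srsf6 and Srsf5 were at 185 to 207 CPM (median 196) and 167 to 179 CPM (median 175) in DMSO1 and at 74.3 to 88.1 CPM (median 84.6) and 65.9 to 86.2 CPM (median 78.3) in 5FU, and Srsf7 and Hnrnpll fell, at -0.57 and -1.28. In all 5 the 5FU libraries lay below both controls without overlap. The kinases that phosphorylate SR proteins, Clk2, Clk3 and Clk4, rose by 0.22, 0.21 and 0.26. Enzymes that make pseudouridine and other uridine modifications, some of which are known to be trapped by fluorouridine in RNA, gave 2 higher and 7 lower of 19. That is 10.5% and 36.8%, beside 23.4% and 24.5% of all genes. Trub1 was at -0.36, Pus1 at -0.20 and Rpusd2 at 1.22. The RNA exosome and its cofactors, which clear faulty nuclear RNA, gave 7 higher and 6 lower of 22. Those shares, 31.8% and 27.3%, stand beside 23.4% and 24.5% of all genes. The cofactor Zfc3h1 was at 44.6 to 61.8 CPM (median 52.7) in DMSO1 and 12.3 to 23.7 CPM (median 15.5) in 5FU (log2 fold change -1.68 ± 0.10 (SE)), and the subunits Exosc6 and Exosc3 rose by 0.80 and 0.73.

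Genes of the respiratory chain and TCA cycle rose together by small amounts. In the respiratory chain, 72 of 74 genes rose and none fell, with a median of 0.36, beside 23.4% higher over all genes. The cytochrome oxidase genes Cox7c and Cox6c were at 404 to 479 CPM (median 461) and 301 to 363 CPM (median 347) in DMSO1 and at 527 to 719.6 CPM (median 614) and 412 to 541 CPM (median 455) in 5FU, log2 fold changes of 0.44 ± 0.07 (SE) and 0.44 ± 0.08 (SE). Both were apart from DMSO1, and Cox7c overlapped with DMSO2. Ndufa4, a subunit of the chain, rose by 0.45. The list held without 5FU library 1 and DMSO1 library 3, at 66 higher. In the TCA cycle 21 of 25 rose (13 with scaling by library size only), with Mdh2 at 0.45, and none fell. In fatty acid oxidation 15 of 28 rose (median 0.28), while 9 were higher and 5 lower against DMSO2 (median 0.14), with Hadha at 0.34 and Acadl at 0.31. Pdk4, the kinase that turns pyruvate away from the TCA cycle, had the largest change there, at 23 to 41.5 CPM (median 30.7) in DMSO1 and 55.5 to 86.5 CPM (median 72.6) in 5FU (2.27-fold higher, edgeR FDR = 5.89e-15), and did not overlap with either control. The 1 gene of that list that fell was Ppargc1a (PGC-1 alpha), the coactivator known to raise mitochondrial genes, at 33.2 to 44 CPM (median 39.5) in DMSO1 and 14.8 to 20.8 CPM (median 18.7) in 5FU, a log2 fold change of -1.08 ± 0.08 (SE) (edgeR FDR = 3.21e-19). Glycolysis genes gave 7 higher and 2 lower of 24, 29.2% and 8.33% beside 23.4% and 24.5% of all genes. The glucose carrier Slc2a1 and the lactate carrier Slc16a1 were lower, at -0.99 and -0.58. Without 5FU library 1, 3 glycolysis genes were higher and 5 lower, and without it and DMSO1 library 3 there were 3 and 6, with a median of -0.01 in place of 0.21. The number higher was 4 without 5FU library 2 and 4 without DMSO1 library 1, and 3 with scaling by library size only.

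Genes of cardiac excitability fell more often than they rose. Of 37 ion channel and calcium handling genes, 19 fell and 3 rose, with a median of -0.38 against DMSO1 and -0.37 against DMSO2. Gja1, the main gap junction protein of the ventricle (connexin 43), was at 324 to 438 CPM (median 365) in DMSO1, 133 to 207 CPM (median 163) in 5FU and 469 to 583 CPM (median 524) in DMSO2, and fell by 1.18 against DMSO1 (edgeR FDR = 6.63e-20). Gja5, the connexin of atria and conduction tissue, was at 14.4 to 22.8 CPM (median 19.3) in DMSO1 and 2.48 to 7.43 CPM (median 6.32) in 5FU (log2 fold change -1.65 ± 0.15 (SE)). In both genes the 5FU libraries were below every control library. The potassium channels Kcnj11, Kcnj5 and Kcnd3 had log2 fold changes of -1.31, -1.21 and -1.06 and the pacemaker channel Hcn4 of -1.14, all DEGs without overlap. Kcnq1 and Fkbp1b, regulators of repolarization and calcium release, were among the genes that rose, by 0.28 and 0.34. Neither passed against DMSO2, at -0.01 (edgeR FDR = 0.887) and 0.22 (edgeR FDR = 0.0129). Without 5FU library 1 and DMSO1 library 3, 17 fell and the median was -0.25. Among cardiac transcription factors, Hand2 was at 54.9 to 72.3 CPM (median 65.7) in DMSO1 and 24.1 to 29.5 CPM (median 27.8) in 5FU (log2 fold change -1.26 ± 0.07 (SE), edgeR FDR = 3.40e-24) and Mef2c fell by 0.82, both without overlap. Gata4 and Nkx2-5 fell, at -0.32 and -0.24, with overlap, and against DMSO2 they were at 0.10, which did not pass (edgeR FDR = 0.252), and -0.34.

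Sarcomere and hypertrophy genes gave a different answer with each control. Of 34 sarcomere and Z-disc genes, 5 rose and 10 fell against DMSO1, and 21 rose and 3 fell against DMSO2. The 10 that fell were 29.4%, beside 24.5% of all genes. Of 18 hypertrophic and fetal genes, none rose and 10 fell against DMSO1, and 8 rose and 4 fell against DMSO2. Nppb, the natriuretic peptide BNP, was at 30.7 to 883 CPM (median 453) in DMSO1, 108 to 215 CPM (median 168) in 5FU and 28 to 40.2 CPM (median 32.6) in DMSO2. Its log2 fold change was -1.44 ± 0.33 (SE) against DMSO1 (edgeR FDR = 1.32e-04) and 2.34 against DMSO2 (edgeR FDR = 7.11e-09), and the 5FU libraries lay inside the wide spread of DMSO1 and above every DMSO2 library. Xirp2, an actin-binding protein of the intercalated disc, was at 115 to 1511 CPM (median 970.3) in DMSO1, 115 to 376 CPM (median 225) in 5FU and 65.6 to 111 CPM (median 82.8) in DMSO2, with log2 fold changes of -2.01 ± 0.32 (SE) and 1.38. Ankrd1 and Csrp3, mechanical stress proteins of the Z-disc, fell, at -0.86 and -0.96, against DMSO1 and were higher by 1.37 and 1.0 against DMSO2. Tgfb2 was at 54.9 to 261 CPM (median 222) in DMSO1, 28.5 to 63.8 CPM (median 36.6) in 5FU and 52.3 to 64.8 CPM (median 54.9) in DMSO2, with log2 fold changes of -2.14 ± 0.20 (SE) (edgeR FDR = 3.11e-14) and -0.42 (edgeR FDR = 0.052). In each of these 5 genes DMSO1 library 3 was the lowest of its group and lay within or next to the DMSO2 range. Without it the log2 fold changes against DMSO1 were -1.69 for Nppb, -2.24 for Xirp2, -1.07 for Ankrd1, -1.16 for Csrp3 and -2.33 for Tgfb2. The 5 sarcomere and Z-disc genes that rose against DMSO1 (14.7%, beside 23.4% of all genes) were higher against DMSO2 too. Among them were Tnni1, by 0.31 and 0.39, and Myl3, by 0.28 and 0.53. Other genes of the contractile core were divided against DMSO2. Tnnt2 at 0.35, Tpm1 at 0.57 and Myh7 at 1.62 were higher, whereas Tnni3 at 0.14, Myh6 at 0.03 and Actc1 at 0.26 did not pass.

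**Figure D3:**
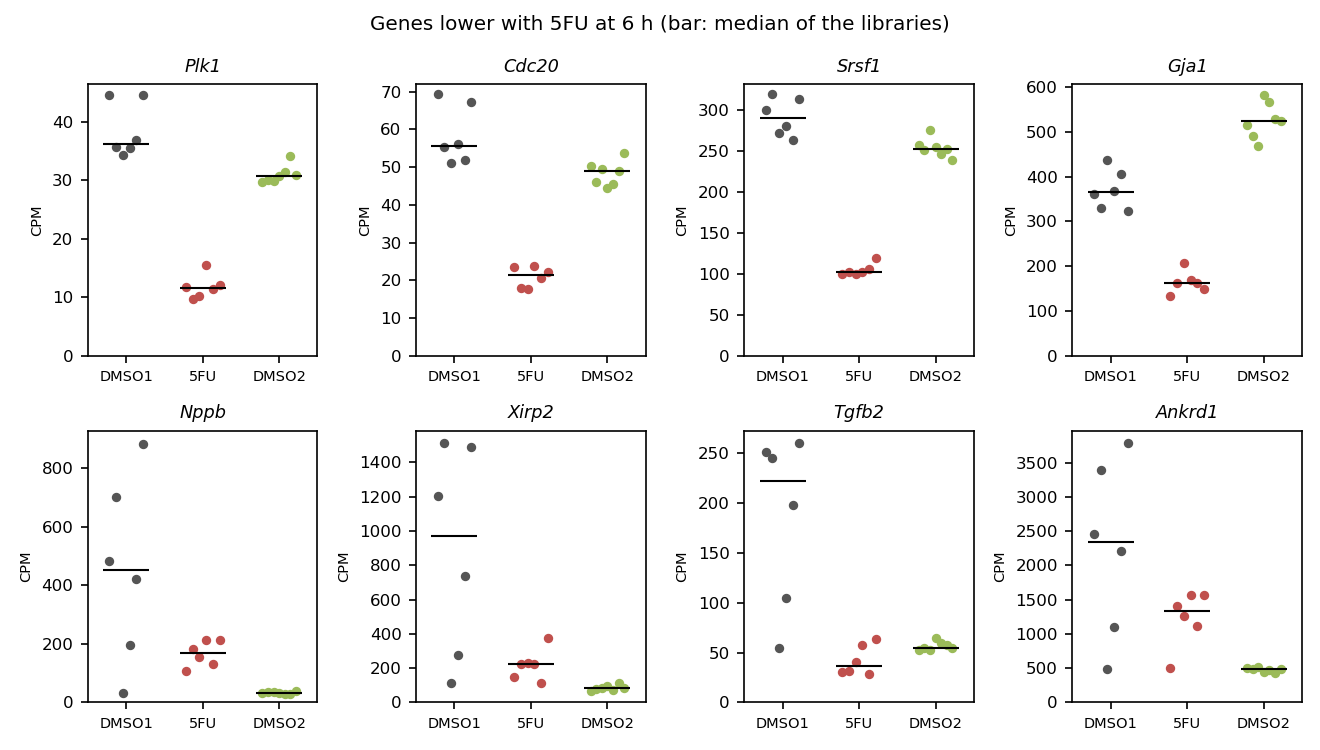
CPM of 8 genes on a linear axis from 0 in each library at 6 h, with 6 points each for DMSO1 and 5FU and 7 for DMSO2, and a bar at the median. In the upper row (Plk1, Cdc20, Srsf1 and Gja1) the 5FU libraries lie below both controls, and in the lower row (Nppb, Xirp2, Tgfb2 and Ankrd1) the DMSO1 libraries spread over a wide range whose lowest point is near DMSO2.

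Sterol, YAP and TGF-beta genes also gave different counts with each control. Genes of sterol and fatty acid synthesis gave 3 higher and 9 lower of 31 against DMSO1, and 17 and 1 against DMSO2. Without 5FU library 1 and DMSO1 library 3 the sterol counts against DMSO1 became 1 and 13. The synthase Lss was at 99.6 to 124 CPM (median 114) in DMSO1, 62.3 to 82.1 CPM (median 70.4) in 5FU and 78.5 to 91.1 CPM (median 85.8) in DMSO2 and fell against each, at -0.65 and -0.26. YAP and TEAD targets gave 4 higher and 8 lower of 16 against DMSO1 (25% and 50%) and 7 and 6 against DMSO2. Ccn2, a matricellular target of the pathway, fell by 0.89 and was 1.11 higher against DMSO2, whereas the upstream scaffold Wwc1 was at 12 to 15.3 CPM (median 13.7) in DMSO1 and 3.59 to 6.32 CPM (median 5.51) in 5FU, below both controls. In the TGF-beta list, 4 rose and 12 fell of 28 against DMSO1 (14.3% and 42.9%), and 8 and 6 against DMSO2. The inhibitory cofactors Ski and Skil rose by 0.84 and 0.55 and stood above both controls, and the activin subunit Inhba fell by 1.38 and stood below both.

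Some genes of other cell types in the cultures also fell. Among endothelial markers, 1 rose and 9 fell of 21, with a median of -0.29 against DMSO1 and -0.89 against DMSO2. Cldn5, the tight junction protein of endothelium, was at 1.43 to 7.68 CPM (median 3.82) in DMSO1, 0 to 1.40 CPM (median 0.403) in 5FU and 9.91 to 11.6 CPM (median 11) in DMSO2 (log2 fold change -3.01 ± 0.40 (SE), edgeR FDR = 3.04e-09). The peptide Apln fell by 2.72 and the angiopoietin receptor Tek fell by 1.14, each below both controls. Among fibroblast markers, 2 rose and 5 fell of 22 against DMSO1, 9.09% and 22.7% beside 23.4% and 24.5% of all genes. The other 15 did not pass. Against DMSO2, 2 were higher and 13 lower. The medians were -0.07 against DMSO1 and -0.39 against DMSO2. Log2 fold changes of the list against DMSO1 ran from -1.49 to 0.92. Pdgfra, a growth factor receptor of fibroblasts, was lowest, at 71.1 to 89.6 CPM (median 77.4) in DMSO1 and 18.1 to 33 CPM (median 28.8) in 5FU (log2 fold change -1.49 ± 0.10 (SE), edgeR FDR = 1.32e-19). The epicardial factor Tcf21 fell by 0.86. The collagens, made mostly by fibroblasts, gave 1 higher and 2 lower of 22, with Col1a1 at 0.02 (edgeR FDR = 0.927), which did not pass. The summed fibroblast markers had nearly the same range in DMSO1 and 5FU. Against DMSO2, 2 collagens were higher and 11 lower, with Col1a1 among the lower at -0.47 (edgeR FDR = 0.0085). Summed endothelial markers were at 140.3 to 184.6 CPM in DMSO2, above both 1% DMSO groups, and the part of cell composition in these results was not tested. Smooth muscle and pericyte markers gave 1 higher and 4 lower of 13, 7.69% and 30.8% beside 23.4% and 24.5% of all genes. Against DMSO2, 4 were higher and 4 lower. Macrophage and leukocyte markers gave 2 higher and 3 lower of 17 (11.8% and 17.6%). Schwann and neuronal markers gave 2 and 1 of 6 (33.3% and 16.7%), and 0 and 3 against DMSO2.

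Inflammatory genes moved in both directions, with 8 higher and 12 lower of 36, which is 22.2% and 33.3% beside 23.4% and 24.5% of all genes. The adhesion molecule Vcam1 was at 14.3 to 21.2 CPM (median 17.3) in DMSO1 and 5.12 to 7.46 CPM (median 5.67) in 5FU (log2 fold change -1.59 ± 0.13 (SE), edgeR FDR = 9.60e-17), and the cytokine Il33 fell by 1.87 and the pentraxin Ptx3 fell by 1.73. The growth factor Csf1 was at 55.3 to 81.6 CPM (median 70.6) in DMSO1 and 103 to 230.2 CPM (median 137) in 5FU (2.14-fold higher, edgeR FDR = 9.59e-13), and the NF-kB inhibitor Nfkbia and the factor Irf1 rose by 0.89 and 0.92. None of these 6 overlapped with either control. In the circadian clock, 5 rose and 7 fell of 19, 26.3% and 36.8% beside 23.4% and 24.5% of all genes. The repressor Per1 was at 17.4 to 27.9 CPM (median 20.9) in DMSO1 and 48.5 to 65.2 CPM (median 56.4) in 5FU (log2 fold change 1.39 ± 0.10 (SE), edgeR FDR = 1.50e-19), and its activator Npas2 fell by 1.09.

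A few genes were close to absent in DMSO1. Adra2a, an adrenergic receptor that restrains noradrenaline release, had at most 3 counts in any DMSO1 library and 10 to 35 counts (median 19.5) in 5FU libraries (edgeR FDR = 1.60e-12). Ccdc87, a coiled-coil protein, had at most 2 counts in DMSO1 and 17 to 33 (median 27) in 5FU (edgeR FDR = 2.18e-12), and the uncharacterized LOC102557137 had at most 2 and 24 to 59 (median 31.5) (edgeR FDR = 3.54e-15). Every 5FU library was above every DMSO1 library for all 3. Smarcb1, a chromatin remodelling subunit, was listed at 0 in all 5FU libraries and in 2 of the 6 DMSO1 libraries, whose highest count was 103, and did not pass (edgeR FDR = 0.0166). It overlaps Derl3 in the annotation, which rose by 0.63. A gene without a symbol was also listed at 0 in all 5FU libraries and in 5 DMSO1 libraries, and did not pass (edgeR FDR = 0.0559).

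**Figure D4:**
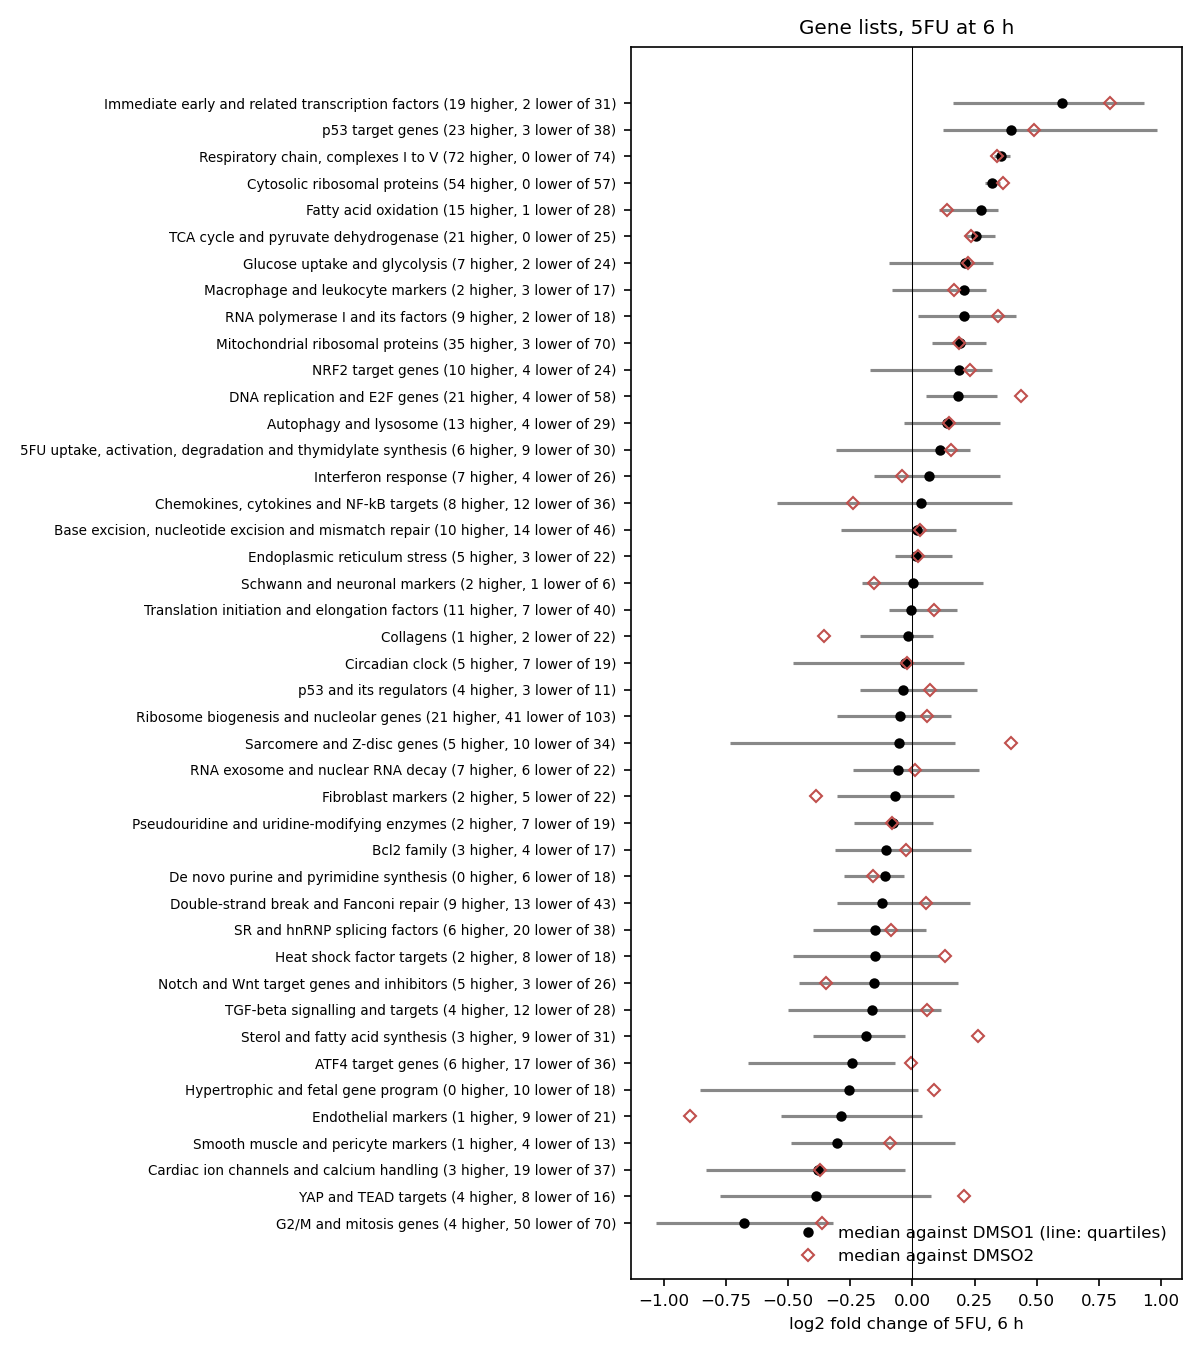
Each row is a gene list, with the number of its members that were higher and lower DEGs of those tested; the x axis is the log2 fold change of 5FU at 6 h, with a black point at the median and a grey line over the quartiles against DMSO1 and a red diamond at the median against DMSO2. Immediate early and p53 target genes lie at the top and G2/M genes at the bottom, and the diamonds of the YAP, endothelial, sterol and sarcomere lists lie far from their black points.

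To ask whether the early response lasted, the 5FU effect at 24 hours, measured in separate libraries against the 1% DMSO libraries of that time, was set beside that at 6 hours. Of the 3408 genes higher at 6 hours, 54.6% were higher at 24 hours too, beside 28% of all genes, and 297 were lower. The shared genes were 45.7% of the 4070 higher at 24 hours. Of the 3563 lower genes, 51.1% were lower at 24 hours (45% of 4047), beside 27.8% of all genes, and 432 were higher. The difference between the 2 effects passed for 5755 genes (39.5%). G2/M genes were among those that differed, with 50 of 70 more positive at 24 hours and 0 more negative in the test of the difference, beside 20.3% and 19.2% of all genes, and a median of 0.03 at 24 hours. Plk1 had a log2 fold change of -0.22 ± 0.10 (SE) at 24 hours (edgeR FDR = 0.0507) and Srsf1 of 0.32 ± 0.05 (SE) (edgeR FDR = 4.92e-08) after their decreases at 6 hours. Cytosolic ribosomal protein genes had 46 of 57 more negative at 24 hours, where the median was -0.13. Collagens, with a median near 0 at 6 hours, had 21 of 22 lower at 24 hours, beside 27.8% of all genes, and a median of -1.32. Of the p53 targets, Cdkn1a stayed higher, at 2.10 ± 0.24 (SE), while Pmaip1 was at 0.39 ± 0.23 (SE) (edgeR FDR = 0.142). Atf3 was at 0.17 ± 0.22 (SE) at 24 hours (edgeR FDR = 0.511), and Gdf15 at 1.88 ± 0.29 (SE) (edgeR FDR = 7.88e-08).

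The other drugs at 6 hours were measured against DMSO2, so each difference from 5FU also carries the difference between the DMSO shares. Dox against DMSO2 changed 64.2% of all genes and Ace 31.7%. The 5FU and Dox effects differed for 6684 genes (45.9%) and the 5FU and Ace effects for 4504 (30.9%). Of the 3408 genes higher with 5FU, 50.6% were also higher with Dox (37.6% of Dox's), beside 31.5% of all genes, and 22% were lower. With Ace 29.9% were higher (42.4% of Ace's), beside 16.5% of all genes, and 3.40% were lower. Of the 3563 genes lower with 5FU, 53.7% were lower with Dox (40.2% of Dox's), beside 32.7% of all genes, and 18.6% were higher. With Ace 35.7% were lower (57.5% of Ace's), beside 15.2% of all genes, and 11.5% were higher. The p53 target median was 0.40 with 5FU, 0.84 with Dox and 0.18 with Ace, and the G2/M median was -0.68, -0.19 and -0.50. Metallothionein Mt1 was higher with 5FU by 1.98, lower with Dox at -0.92 and at 0.69 with Ace, and the difference between 5FU and Dox passed (2.90 on the log2 scale). The thioredoxin-interacting protein Txnip, a glucose-responsive gene, rose with 5FU, was at 866 to 1012 CPM (median 935) in DMSO1 and 1981 to 3530.2 CPM (median 2130.3) in 5FU, and was -3.07 on the log2 scale with Dox. Among genes with a mean count of at least 100, Tg had the largest positive difference between 5FU and Ace, at 3.67 with 5FU and 1.01 with Ace.

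**Figure D5:**
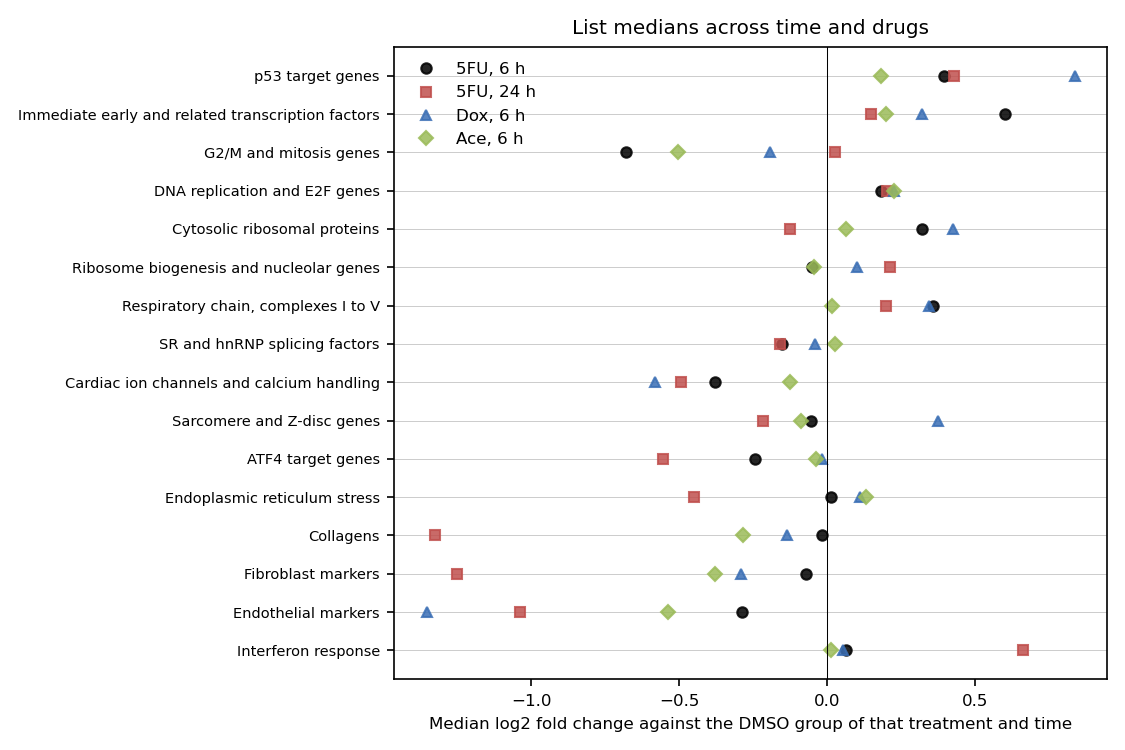
Median log2 fold change (x axis) of 16 gene lists (rows) for 5FU at 6 h, 5FU at 24 h, Dox at 6 h and Ace at 6 h, each against the DMSO group of its own treatment and time. The G2/M median is lowest for 5FU at 6 h and near 0 for 5FU at 24 h.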

How the data were processed

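RNA sequencing of polyadenylated RNA was analysed from 65 libraries in 10 groups. The deposited values are estimated counts per gene in whole numbers, which the authors made with kallisto v0.46.0 against the rat Ensembl transcriptome, summed to genes with tximport, after removing genes with consistently low counts, so genes near the detection limit were not analysed here and transcripts shared between loci may be split. Depth was 19216512 to 21970914 counts in the 12 libraries compared. Columns carry the group names, and library numbers follow column order and are names only.

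All 14554 genes reached a count of 10 somewhere and were tested (14009 matched a symbol), scaled by TMM and fitted with group as the only term over all 10 groups in edgeR 4.0.16 (R 4.3.3), with Benjamini-Hochberg adjustment and an FDR below 0.01. SE is the log2 fold change divided by the square root of its F. Differences between effects were contrasts in the same fit. The fit was tested on simulated data with known changes. DESeq2 1.42.0 served as an alternative. Gene lists held 1483 entries, of which 1381 were in the table. The members and lists were chosen with earlier results of these data known. Named were the 15 largest increases and decreases with a mean count of at least 100 over the 12 libraries, list members beside their list, genes with at most 3 counts throughout a group, and the 5 largest differences per direction in other contrasts. Promoters (GRCr8, RefSeq) were searched for 14 letter strings on both strands.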

Additional observations from a re-analysis of the deposited data

Results flagged for a closer look

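Among 60 groups of 6 libraries, those of the 30 named genes in 5FU and DMSO1, 6 had a library far from the other 5 by Dixon's criterion. Chance gives about 1 in 20 for independent groups. These groups are the same 12 libraries seen in 30 genes, so that rate is no measure for the 6. 5FU library 1 was the highest for Gdf15 (236 CPM, the next at 129), for Atf3 (70.2 CPM, the next at 39.99) and for Fos (20.8 CPM, the next at 11.4). DMSO1 library 3 was the lowest for Srxn1 (8.96 CPM, the next at 14.7) and the highest for Gpr22 (93.3 CPM, the next at 52.7). 5FU library 6 was the highest for Cemip (6.20 CPM, the next at 3.42). The first 2 of these libraries are those that lay apart in the PCA. Without 5FU library 1 the log2 fold change was 3.54 for Gdf15, 1.98 for Atf3 and 1.52 for Fos.

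The effect of 5FU differed between 24 and 6 hours by the test of the difference (edgeR, FDR below 0.01), given as the log2 effect at 24 hours less that at 6 hours. The 5 largest positive differences were those of Xirp2 (2.38), the tight junction protein Cgn (2.17), the tubulin-binding Tppp3 (2.12), the single-strand DNA-binding Fubp1 (2.10) and Adamts8 (2.09). The 5 largest negative differences were those of the microfibril protein Mfap4 (-4.84), the collagen Col6a6 (-3.30), C6h14orf180 (-3.20), Reg3b (-2.61) and the complement component C7 (-2.50). The test of the difference does not say which time carries it: Mfap4 had a log2 fold change of 0.92 at 6 hours and -3.92 at 24 hours, and Xirp2 of -2.01 and 0.37.

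The 5FU effect less the Dox effect at 6 hours was largest for Lrrc10 (4.59), Txnip (4.39), the lipolysis inhibitor G0s2 (3.54), the tRNA-processing Elac1 (3.26) and Mt1 (2.90), and most negative for the sodium channel subunit Scn3b (-5.27), Xirp2 (-5.01), Ifit1bl (-4.48), Ccdc96 (-4.28) and Nppb (-3.99). Lrrc10 was lower with both drugs, at -2.55 with 5FU and -7.14 with Dox. The 5FU effect less the Ace effect was largest for Tg (2.67), Map3k8 (2.05), Gdf15 (1.95), Gtse1 (1.90) and the GTP-binding Gtpbp8 (1.59), and most negative for B3galt2 (-2.21), Zfc3h1 (-2.13), the aryl hydrocarbon receptor targets Cyp1a1 (-2.12) and Aldh3a1 (-2.0), and the adhesion molecule Cadm1 (-1.93). The difference in DMSO share cannot be told apart from the drugs in these comparisons, and it was large for Nppb and Xirp2, whose fitted DMSO1 means stood 13.7-fold and 10.5-fold above those of DMSO2, although DMSO1 library 3 lay within or next to the DMSO2 range.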

How the results depend on the processing

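The count of 6971 genes for 5FU at 6 hours stayed within 1.5 times under other scalings, filters, tests and controls, from 5314 with the compared groups fitted alone to 9258 at an FDR below 0.1. A minimum log2 change of 1 left 877 genes for 5FU at 6 hours, 1048 for the difference between times, 1985 for the difference from Dox and 558 for that from Ace, and an FDR below 0.1 raised the last to 7017. With single libraries left out the counts were 6543 to 6807, 5475 to 6016, 6417 to 6783 and 4171 to 4611 genes in the same order. With DMSO2 as the control Xirp2 reversed to 1.38 (edgeR FDR = 8.48e-05) and Tgfb2 no longer passed, at -0.42, and no other of the 30 named genes changed its call or direction under the alternatives run. Scn3b, at -1.01 against DMSO1, no longer passed without 5FU library 1 (edgeR FDR = 0.0221). For list medians, 33 of 731 alternative values moved by more than the spread between replicates, 20 of them with DMSO2 as the control. With that control the medians of the YAP (0.21), sterol (0.26), sarcomere (0.39), hypertrophic (0.09), heat shock (0.13), TGF-beta (0.06), ribosome assembly (0.06) and double-strand break repair (0.06) lists were positive. Leaving out pairs of libraries was chosen after seeing the data. No paired analysis was possible because the columns carry no replicate numbers. At these depths, genes near the floor of 3 counts allow no fold.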

Other observations

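DNA repair genes were called at shares near those of all genes, 23.4% higher and 24.5% lower. Of 43 genes for double-strand break and Fanconi repair, 9 rose and 13 fell (median -0.12) against DMSO1 and 17 were higher and 11 lower (median 0.06) against DMSO2, and of 46 genes for base excision, nucleotide excision and mismatch repair, 10 rose and 14 fell (median 0.02). The glycosylase Neil2 was at 0.622 to 1.24 CPM (median 0.766) in DMSO1 and 1.31 to 2.31 CPM (median 1.84) in 5FU (log2 fold change 1.11 ± 0.22 (SE), edgeR FDR = 1.54e-05), and the recombination factor Rad51c fell by 0.93. Autophagy and lysosome genes rose more often than they fell, with 13 higher and 4 lower of 29 (44.8% and 13.8%). Atg12, a conjugation protein of the autophagosome, rose by 0.93, and Mitf, a regulator of lysosomal genes, fell by 0.63. Translation factors gave 11 higher and 7 lower of 40, 27.5% and 17.5% beside 23.4% and 24.5% of all genes. Their counts were 6 and 12 with scaling by library size only and 6 and 10 without 5FU library 1 and DMSO1 library 3.

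In the interferon list 7 of 26 genes rose and 4 fell at 6 hours, 26.9% and 15.4% beside 23.4% and 24.5% of all genes. Against DMSO2, 5 were higher and 6 lower. The list median against DMSO1 was 0.07 at 6 hours and 0.66 at 24 hours. The antiviral gene Ifit1 was at 0.286 to 1.19 CPM (median 0.519) in DMSO1 and 1.38 to 7.01 CPM (median 4.30) in 5FU (log2 fold change 2.85 ± 0.34 (SE), edgeR FDR = 7.38e-11), and the peptide transporter Tap1 was at 12.3 to 17.8 CPM (median 15.5) and 35 to 45.3 CPM (median 39.7) (log2 fold change 1.38 ± 0.13 (SE)). Among Notch and Wnt targets and inhibitors 5 rose and 3 fell of 26 against DMSO1, 19.2% and 11.5% beside 23.4% and 24.5% of all genes. But 4 were higher and 13 lower against DMSO2, and the medians were -0.15 against DMSO1 and -0.35 against DMSO2. Members that passed against DMSO1 included Notch1 at 1.10 and its target Hes1 at -0.66.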
